A study of Schizosaccharomyces japonicus with 2 samples.

Results

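The 50 kb on the right side of a long stretch without small RNA on supercontig 2 of the fission yeast Schizosaccharomyces japonicus held dense small RNA in its first 12 kb and almost none beyond. The region was bases 1973001 to 2023000 of supercontig 2. It was selected on its number of reads in these libraries. Its members were the distinct places (start, end and strand) listed there with a mapped span of 21 to 28 nt. There were 4228 such places of 223429 in replicate 1 and 5049 of 474395 in replicate 2, and 6622 of 594345 in either library. Small RNA came from log-phase cultures of the wild-type strain yFS275 in 1 group of 2 libraries, replicate 1 and replicate 2, so no conditions were compared. Nothing in the labels says that the libraries came from separate cultures, and with 1 group of 2 libraries no test between groups was possible. Replicate 1 held 3086539 mapped reads and replicate 2 held 3492513.

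Small RNA of fission yeasts is best known from Schizosaccharomyces pombe. There an RNA-dependent RNA polymerase makes transcripts of the repeats beside the centromeres double-stranded, and Dicer cuts them into small interfering RNA that Argonaute uses to direct heterochromatin. Such RNA comes from both strands of the same bases. Clusters of tRNA genes also stand beside the centromere cores of Schizosaccharomyces pombe, and fragments of stable RNA such as tRNA and rRNA, which come from the transcribed strand alone, are a common part of small RNA libraries. In Schizosaccharomyces japonicus, retrotransposons make up much of the centromeric and telomeric sequence. Which of these the bases described here contain was not analysed here, since no annotation of the files' assembly was used.

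The region held 225081 reads in replicate 1 and 219369 in replicate 2, nearly the same number. As a share of the reads outside a dense region at bases 1 to 37000 of supercontig 3, called the block, this was 25.3% in replicate 1 (95% Clopper-Pearson interval 25.2 to 25.4) and 8.93% in replicate 2 (8.89 to 8.96), or 17.1% ± 11.6 (SD, n = 2). As a share of all reads of 21 to 28 nt it was 7.31% and 6.29%, or 6.80% ± 0.716 (SD, n = 2). The libraries therefore differed in the region's share when the block was left out and were close when it was kept in. Reads of 21 to 28 nt outside the block numbered 889190 of 3080905 in replicate 1 and 2457514 of 3485818 in replicate 2. With each member counted once the mean share outside the block was 1.76%. The plus strand held 49.3% of the region's reads in replicate 1 and 35.1% in replicate 2. These intervals cover counting error only, since PCR copies are not independent molecules. Sequences with more than 1 equally good place carried 65.9% of its reads in one library and 70.7% in the other, replicate 2. Each such sequence is listed at 1 of its places, so the level at any one place is less certain than the level of the set.

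The left edge was sharp. The first member began at base 1973036 in replicate 2 and at base 1973131 in replicate 1. The first kb held 23933 and 20858 reads, and the kb before it held 0 and 5. In the 120 kb of the gap, bases 1853001 to 1973000, replicate 1 had 0 reads of 21 to 28 nt and replicate 2 had 13. A count of 0 allows up to 3 reads. The rule for the region set this edge, so these values describe it and nothing is read from them. At the far side the last kb held 0 and 2 reads and the next one 1 and 0.

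Windows of 1 kb were called dense at 100 RPM or more in each library, where RPM scales reads to a total of 1000000 outside the block. The region had 12 dense windows of 50, in an unbroken run from base 1973001 to 1985000, while 5.92% of the 10234 windows with reads outside the block were dense. The region was chosen for such windows, so the excess over that share is not a result. The run carried 99.8% of the region's reads in replicate 1 and 99.7% in replicate 2. By strand, 4 of these windows were one-strand windows (minor strand under 1% in each library; 0.401% of all windows), 5 were both-strand windows (minor strand at least 10% in each; 4.44%), and 3 lay in between (1.08%).

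The 4 one-strand windows all had their reads on the minus strand. Bases 1973001 to 1974000 held 23913 minus and 20 plus reads in replicate 1, and 20787 and 71 in replicate 2. Bases 1977001 to 1978000 held 8457 and 7972 minus reads, bases 1978001 to 1979000 held 6139 and 5446, and bases 1983001 to 1984000 held 12807 and 11066. Their plus reads numbered 7, 7 and 10 in replicate 1 and 35, 47 and 52 in replicate 2. The raw number of reads in a one-strand window thus differed little between the libraries.

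The both-strand windows lay among them, with many reads on each strand. Bases 1975001 to 1976000 held 5189 plus and 11875 minus reads in replicate 1, and 2518 and 14122 in replicate 2. Bases 1976001 to 1977000 held 4453 and 6121 in replicate 1, and 7623 and 6039 in replicate 2. Bases 1981001 to 1982000 held 10012 and 4928 in replicate 1, and 3983 and 4723 in replicate 2. In both of the last windows the strand with more reads was not the same in the libraries. The other both-strand windows were bases 1979001 to 1980000 and 1982001 to 1983000, with 9659 and 23952 reads in replicate 1 and 20613 and 18185 in replicate 2, and there the minus strand led in each library. Among the windows in between, bases 1980001 to 1981000 held 73209 plus and 1975 minus reads in replicate 1 and 42774 and 2870 in replicate 2, the most of any window in replicate 1. Bases 1974001 to 1975000 held 4781 plus and 15286 minus reads in replicate 1, and 4440 and 44162 in replicate 2, the most of any window there. Bases 1984001 to 1985000 held 1905 minus reads and 1 plus read in replicate 1, and 1109 and 14 in replicate 2. The limits were approached at few windows. Just inside the one-strand limit was the window from 1978001, with a minor strand of 0.114% and 0.856%, and just outside was that from 1984001, with 0.0525% and 1.25%. Just inside the both-strand limit was the window from 1975001, with 30.4% and 15.1%, and just outside was that from 1974001, with 23.8% and 9.14%. The dense window with the fewest reads, from 1984001, had 2144 and 457 RPM, while beyond the run the window from 2021001 had 91.1 and 101.3 RPM and that from 1986001 had 130.5 and 67.5 RPM. Over the 12 dense windows the ratio of reads, replicate 1 over replicate 2, ran from 0.413 to 1.72 with a median of 1.13.

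**Figure D1:**
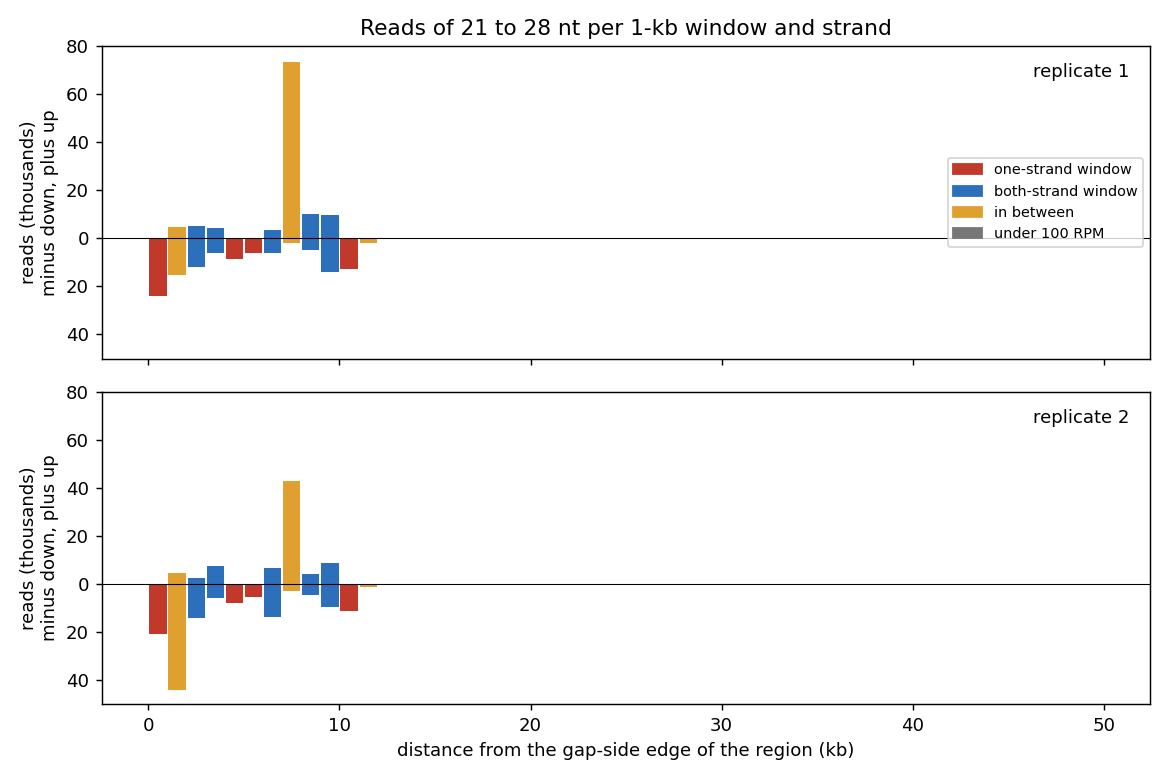
Reads of 21 to 28 nt in each 1-kb window of the region, in units of 1000 reads, plus strand upward and minus strand downward, for replicate 1 (top) and replicate 2 (bottom). Colours give the window class. The 12 dense windows stand at the gap side, with 73209 and 42774 plus-strand reads in the window at 7 to 8 kb and 15286 and 44162 minus-strand reads in that at 1 to 2 kb, and nothing is visible at this scale beyond 12 kb.

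Within the both-strand windows the strands were nearly separate at a finer scale. Reads were counted in ever smaller bins, and the share on the minor strand of each bin was taken. Over the 5 both-strand windows it was 36.4% in replicate 1 and 35.8% in replicate 2 at 1000 nt, 7.23% and 15.2% at 500 nt, 0.705% and 0.995% at 200 nt, and 0.0958% and 0.652% at 100 nt. At 100 nt the one-strand windows had 0.0837% and 0.444%. By reads, the both-strand windows were thus made of neighbouring places of opposite strands that fell in the same window. With each member of the region counted once in place of its reads, the mean minor-strand share at 100 nt was 6.03%, against 0.237% by reads.

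The other side of the gap, bases 1803001 to 1853000, kept its mixture of strands at every bin size. The minor strand held 15.4% of all reads in replicate 1 and 16.1% in replicate 2 at 1000 nt over the whole right flank, against 32.6% and 33.4% over the left flank. At 100 nt it held 0.0635% and 0.410% in the right flank, against 24.0% and 24.9% in the left flank, and at 25 nt 0.0582% and 0.333% against 13.5% and 15.3%. The reads outside the block and the right flank had 7.41% and 17.3% at 100 nt. Each library showed the difference between the flanks, which at 100 nt was 0.237% ± 0.245 against 24.5% ± 0.690 (SD, n = 2 each). The spread between the libraries is far smaller than this difference, and no test was run on 2 libraries.

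**Figure D2:**
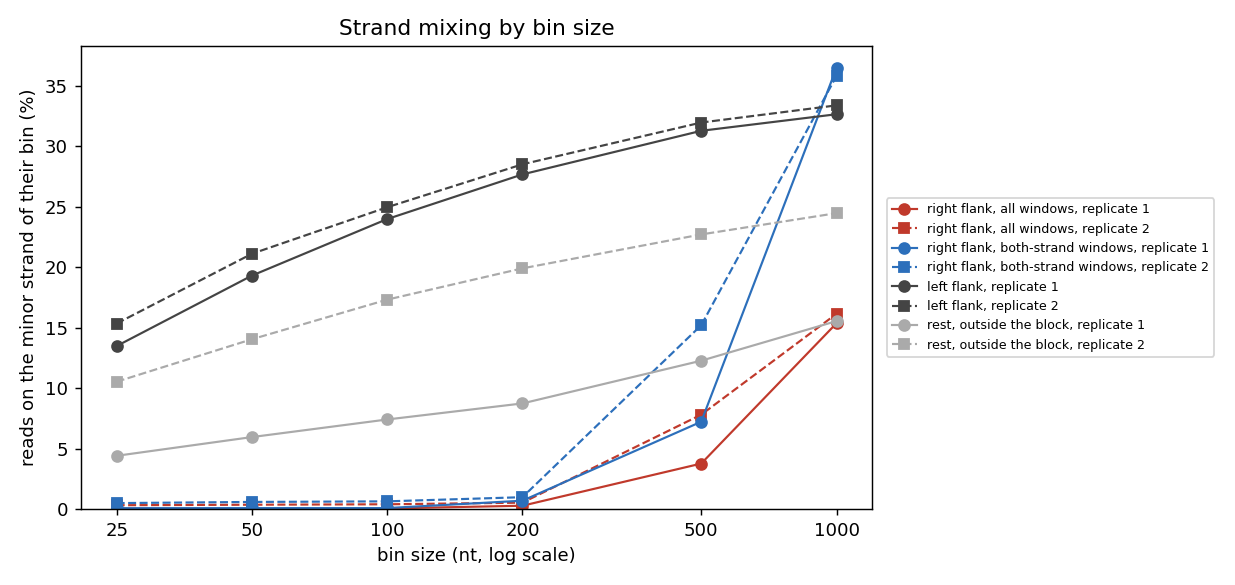
Share of reads on the minor strand of their bin, in percent, against bin size in nt on a log scale, for each library (circles replicate 1, squares replicate 2), with the reads outside the block and the right flank in light grey. The right flank and its both-strand windows fall under 1.0% at 200 nt and below, while the left flank stays at 13.5% or more down to 25 nt.

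The dense run resolved into short stretches of one strand. A stretch was a run of at least 21 bases covered by at least 20 reads on one strand in each library, joined with others of its strand within 40 nt. These limits and the stretches named here were chosen after the data were seen. There were 40 stretches, or 18 from sequences with a single best place alone. Of the 40, 14 were on the plus and 26 on the minus strand, and they held 98.6% of the reads of the run in replicate 1 and 98.1% in replicate 2 on 24.4% of its bases. Their lengths ran from 28 to 175 nt with a median of 74.5 nt, and 32 of the 40 were 60 to 100 nt long. No 2 stretches overlapped. The space between neighbours ran from 66 to 1134 nt with a median of 179 nt, and the strand changed at 16 of the 39 steps from one stretch to the next.

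Reads on the opposite strand over these stretches were rare. They numbered 123 against 221593 reads in replicate 1, or 0.0555% (95% Clopper-Pearson interval 0.0461 to 0.0662), and 799 against 214485 in replicate 2, or 0.371% (0.346 to 0.398). The share was at most 1.28% and 5.71% over any single stretch. By the same definition the left flank had 54 stretches with a median length of 27.5 nt. Opposite-strand reads made up 28.9% and 34.2% of the reads over them. The left flank held 11328 and 88151 reads in all, and its stretches held 3015 and 20393 of these. Because a stretch is defined by a number of reads, its length depends on depth. Lengths in the 2 flanks are thus not comparable.

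**Figure D3:**
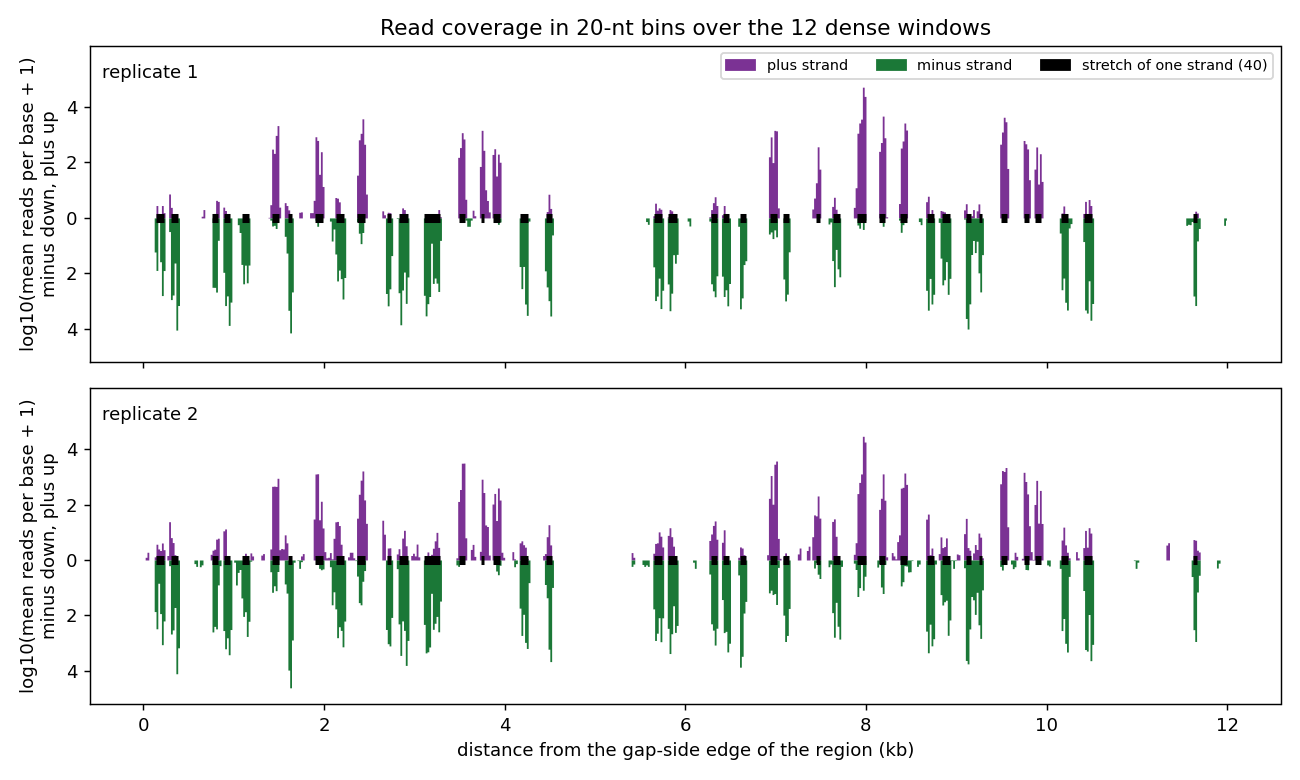
Mean reads per base in bins of 20 nt over the 12 dense windows, as log10(reads + 1), plus strand upward and minus strand downward, for each library. Black bars mark the 40 stretches, in which the opposite strand holds at most 1.28% and 5.71% of the reads over any one stretch, and the layout is alike in replicate 1 and replicate 2.

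Bases 1980905 to 1980995 carried the most reads of any stretch in replicate 1, and bases 1974601 to 1974642 did in replicate 2. Bases 1980905 to 1980995, 91 nt long, held 72733 reads in replicate 1 and 42356 in replicate 2, with 4 and 38 on the opposite strand. Of these reads 46.0% and 62.4% ended at base 1980991, from several 5′ ends. Other 3′ ends were also used, such as base 1980981 with 11432 and 3486 reads and base 1980983 with 5800 and 2291. Base 1980991 was the most used 3′ end of the region, with 33471 reads or 14.9% in replicate 1 and 26449 or 12.1% in replicate 2. The leading member of the region, bases 1980969 to 1980991, had 15797 reads in replicate 1 and 9935 in replicate 2, with a span of 23 nt. Bases 1980967 to 1980991 (25 nt) had 7805 and 7020 reads, and bases 1980971 to 1980991 (21 nt) had 7764 and 5620. Bases 1980961 to 1980981, also 21 nt and also of the plus strand, had 5653 and 1934 reads. So 3 of the 5 leading members shared one 3′ end, with 5′ ends at bases 1980967, 1980969 and 1980971.

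The minus-strand stretches below were named because they held 5′ ends among the 10 with the highest mean RPM. Heavy use of few 5′ ends in them follows from that choice. Other minus-strand stretches with many reads, such as bases 1983418 to 1983506 with 9625 and 7898, were not named on this ground. Which 5′ end led could change between the libraries, as at bases 1982103 to 1982164, with base 1982144 in replicate 1 and 1982133 in replicate 2. Bases 1974601 to 1974642 held 14700 reads in replicate 1 and 43175 in replicate 2, with 1 and 0 on the opposite strand. The 5′ end at base 1974641 carried 9169 and 14648 reads, and that at base 1974639 carried 2242 and 13511. Bases 1973305 to 1973383 held 12462 and 13433 reads, and 72.0% and 84.7% of these ended at base 1973361. Its leading member, bases 1973361 to 1973383 (23 nt), had 5407 and 4563 reads, all from sequences with several places. Its 5′ ends at bases 1973383 and 1973382 had 6904 and 3728 reads in replicate 1 and 5615 and 5325 in replicate 2. Bases 1982103 to 1982164 held 13553 and 8701 reads, with the 5′ end at base 1982144 used by 4729 and 625. Bases 1973889 to 1973963 held 9708 and 4968 reads, with 7132 and 2077 at the 5′ end of base 1973963.

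The remaining 5′ ends among the 10 with the highest mean RPM all lay in the leading plus-strand stretch. Bases 1980969, 1980967, 1980961 and 1980971 carried 17373, 9399, 10721 and 7822 reads in replicate 1 and 10973, 8266, 3850 and 5698 in replicate 2. Those 10 ends together held 35.2% of the region's reads in replicate 1 and 32.2% in replicate 2. With the 10 most used 5′ ends taken in each library by itself, the share was 36.2% and 37.8%, against 6.14% and 5.55% in the left flank. The reads of the right flank thus rested on few ends in both libraries, and the mean share was 63.1% among sequences with a single best place, against 37.0% among all. Single-place reads were unevenly spread, so the 63.1% leans on few stretches. They made up more than 50% of the reads in 5 of the 40 stretches in each library. At bases 1980905 to 1980995 they were 74.0% of 72733 reads in replicate 1 and 78.6% of 42356 in replicate 2.

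Reads of a stretch shared 5′ ends and 3′ ends to a similar degree. In the median stretch the leading 5′ end held 35.0% of the stretch's reads in replicate 1 and 38.2% in replicate 2, and the leading 3′ end 36.1% and 41.3%. The leading 3′ end was the same base in both libraries in 16 of the 40 stretches and within 2 nt in 26, and the leading 5′ end was the same in 17 and within 2 nt in 24. The share of reads near an edge varied between stretches. In 20 stretches in each library more than 50% of the reads began within 10 nt of the 5′ edge. In 13 stretches in replicate 1 and 15 in replicate 2 more than 50% ended within 10 nt of the 3′ edge. These edges were set by the coverage of the same reads, and a short stretch can pass at both. Bases 1976742 to 1976769, 28 nt long, had 100% at each edge in both libraries. The counts therefore describe the stretches only.

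Most stretches had similar raw reads in the libraries, but not similar RPM. The ratio of reads, replicate 1 over replicate 2, had a median of 0.949 with quartiles of 0.671 and 1.65, and lay within 2-fold in 34 of the 40 stretches. The ratio of RPM, which scales to the reads outside the block, had a median of 2.62 with quartiles of 1.86 and 4.56. It lay within 2-fold in 11 stretches, and RPM was higher in replicate 1 in 37. Across these stretches, which are not independent replicates, log2 RPM of the libraries had Pearson r = 0.88 and Spearman rho = 0.85. The widest ratios of raw reads were 3.02 at bases 1981143 to 1981207, with 4613 and 1527 reads, and 0.270 at bases 1979601 to 1979671, with 2317 and 8579.

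The spans of reads within a stretch varied between the libraries. The share of 23-nt reads differed between the libraries by a median of 9.64 percentage points and by more than 20 points in 9 stretches, and the most frequent span was the same in 12 of the 40. At bases 1976490 to 1976562 23-nt reads made up 20.6% in replicate 1 and 80.5% in replicate 2, while at bases 1981382 to 1981452 they made up 61.1% and 3.63%. In these stretches the leading 5′ end held 9.99% and 56.0%, and 59.0% and 35.3%, of the reads.

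Over all reads of the region, no span led in both libraries. Reads of 21, 22, 23, 24 and 25 nt made up 24.7%, 20.3%, 26.9%, 14.2% and 13.6% in replicate 1, and 19.4%, 17.8%, 22.7%, 22.9% and 16.7% in replicate 2. In the left flank 23 nt led with 38.3% and 38.1%, and 21 nt held 11.5% and 10.7%. The 23-nt share was thus lower in the right than in the left flank in both libraries. Reads outside the block and the right flank had 25.4% and 35.5%, so against these the share was lower in replicate 2 only.

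The difference in 23-nt reads between one-strand and both-strand windows of the region rested on single windows. Reads of 23 nt made up 27.8% of the one-strand windows (95% Clopper-Pearson interval 27.4 to 28.2) and 24.3% of the both-strand windows (24.0 to 24.6) in replicate 1. In replicate 2 they made up 25.6% (25.2 to 26.0) and 22.6% (22.3 to 22.9). The difference, one-strand minus both-strand, was 3.47 and 3.01 percentage points, or 3.24 ± 0.329 (SD, n = 2). Single windows spread far more widely, from 15.7% to 44.8% over the 4 one-strand windows and from 15.5% to 40.5% over the 5 both-strand windows in replicate 1. In replicate 2 the one-strand windows ran from 16.9% to 29.8% with a median of 24.2%, and the both-strand windows from 10.6% to 61.6% with a median of 12.3%. The highest of these both-strand windows was that from 1976001, and without it the difference was 3.07 points in replicate 1 and 11.3 in replicate 2. With each of the 9 windows left out in turn the mean difference ran from 0.648 points, without the one-strand window from 1973001, to 7.20 points, without that from 1976001. Without the both-strand window from 1979001 or that from 1982001 the difference in replicate 2 was -0.993 or -0.147 points. The mean difference was 13.0 points with windows moved by 500 bases and 1.87 points with a limit of 20% for both-strand windows.

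**Figure D4:**
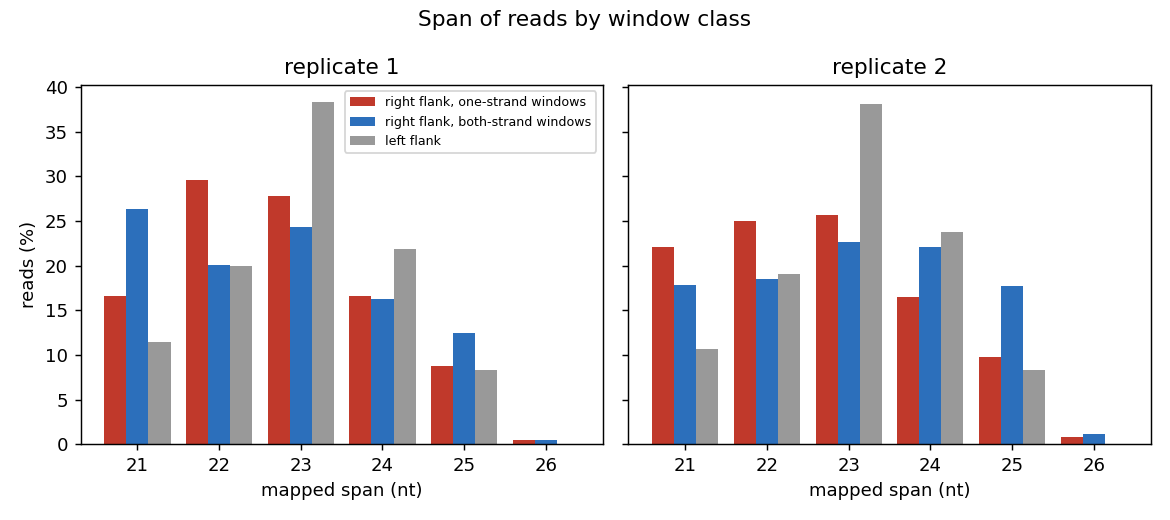
Percent of reads at each mapped span from 21 to 26 nt in the one-strand and both-strand windows of the right flank and in the left flank, for each library. The left flank peaks at 23 nt with 38.3% and 38.1%, while neither window class shown for the right flank exceeds 27.8% there. The windows in between, not shown, had 28.5% in replicate 1 and 21.3% in replicate 2.

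Many places listed several different sequences. The region's 4228 and 5049 places held 13257 and 13404 sequences, or 3.14 and 2.65 per place, against 1.12 and 1.35 in the left flank. Distinct sequences of one span at one place differ in at least 1 base, so at most 1 of them can match the reference exactly. Hence at least 19.0% of the region's reads in replicate 1 and 16.4% in replicate 2 differed from the reference at 1 base or more. Because the number of sequences grows with reads, places with at least 100 reads were compared. These numbered 306 and 291 in the right flank, where sequences other than the leading one held 18.8% and 16.0% of the reads. The share was uneven within the flank. It was 16.2% and 15.0% in the one-strand windows and 6.97% and 11.8% in the both-strand windows. In the windows in between it was 27.6% and 19.3%. In the left flank 59 such places in replicate 2 had 7.91%, and replicate 1 had 1 such place. Outside the block and the right flank 545 and 2238 such places had 6.41% and 8.98%.

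The share of such reads varied between stretches, from 2.78% to 37.7% in replicate 1 and from 1.59% to 38.2% in replicate 2. The share of reads outside the leading sequence of each place was 34.3% and 37.0% at bases 1980905 to 1980995, where 209 and 179 places listed 2464 and 1733 sequences. It was 34.6% and 38.0% at bases 1983418 to 1983506, and 37.7% and 38.2% at bases 1979601 to 1979671. At bases 1974601 to 1974642 it was 5.16% and 4.59%. The shares were close between the libraries in each of these named stretches, but not in all stretches. At bases 1980453 to 1980486 the share was 8.56% and 37.6%, and at bases 1976490 to 1976562 it was 23.4% and 9.71%. At the leading member, bases 1980969 to 1980991, a sequence with several places held 9719 reads in replicate 1 and 6042 in replicate 2, and a second sequence with a single best place held 5567 and 3503. The pair made up nearly all of its reads in both libraries. Whether the differing bases come from related copies elsewhere, from the RNA itself or from sequencing was not tested.

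With sequences of several places included, the dense run looked like a set of stretches laid out once more about 6 kb further on. The profile of 5′ ends, with each place counted once on its own strand in bins of 20 nt and the counts taken as ln(count + 1), matched itself best at a distance of 6000 nt in both libraries, with r = 0.55 in replicate 1 and 0.49 in replicate 2. The next peak stood at 5520 nt with r = 0.33 in each, and no other distance up to 9000 nt more than 100 nt from these exceeded 0.14 and 0.17. Sequences with a single best place alone gave r = 0.16 and 0.13 at 6000 nt. The match was thus weaker without the sequences that have several places, and about as high as the 0.14 and 0.17 above. Other distances were not tried with single-place sequences, so these alone do not show a distinct match at 6 kb. The bases themselves were not compared.

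**Figure D5:**
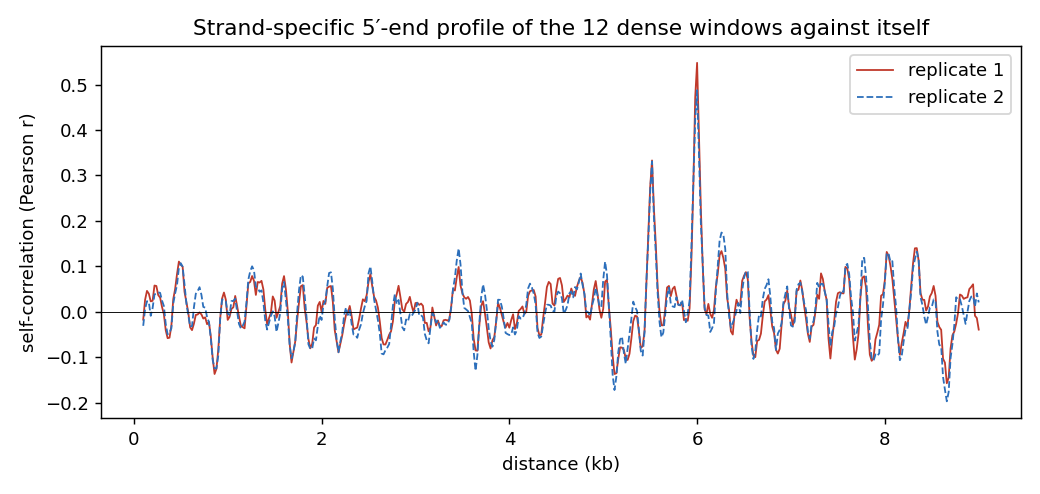
Self-correlation (Pearson r) of the strand-specific profile of 5′ ends over the 12 dense windows against distance in kb, for each library. Both curves peak at 6 kb with r = 0.55 and 0.49 and again at 5.52 kb with r = 0.33.

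Of the 20 stretches that could have a partner 5900 to 6100 nt further from the gap, 15 had one on the same strand, by the distance of their starts or of their ends. The longest stretch, bases 1976108 to 1976282, had 2 partners, which made 16 pairs. Partners stood in the same order, which so narrow a range of distances largely fixes, with 6 pairs on the plus and 10 on the minus strand. The distance between starts was within 20 nt of 6000 in 11 of the 16 pairs. Bases 1982493 to 1982563 and 1982745 to 1982804 began 6003 nt after bases 1976490 to 1976562 and 1976742 to 1976769. Stretches in pairs carried 87.4% of the reads of all stretches in replicate 1 and 84.6% in replicate 2. These shares count both partners of a pair, whatever the level of each. The range of 5900 to 6100 nt was centred on the best distance of the self-match in these same data. Partners at other distances were not counted, so the number of pairs has no baseline and is a description only.

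Partners differed in level by more than 2-fold in both libraries in 6 of the 16 pairs, and in the same direction in both in 13. Some pairs were close, such as bases 1981382 to 1981452 over bases 1975371 to 1975454, with ratios of 0.839 and 0.985. Pairs with wide ratios are given next. The leading plus-strand stretch, bases 1980905 to 1980995, had 72733 and 42356 reads, against 1478 and 2299 in its partner nearer the gap, bases 1974899 to 1974985. The ratio was 49.2 in replicate 1 and 18.4 in replicate 2. In other pairs the stretch nearer the gap had more. Bases 1980636 to 1980716 had 462 and 842 reads, against 14700 and 43175 in bases 1974601 to 1974642, a ratio of 0.0314 and 0.0195. Bases 1979287 to 1979346 had 1255 and 1642 reads, against 12462 and 13433 in bases 1973305 to 1973383. Where sequences have several places, the place listed decides part of such ratios, and the size of that part was not tested.

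With all members counted once, opposite-strand pairs with the ends that Dicer leaves were not the most frequent pairs in the region. Pairs of members of one span that overlap with 2-nt 3′ overhangs on each side numbered 28 in replicate 1 against 23.8 ± 3.85 at the other differences of start within 10 nt (SD over these differences), a ratio of 1.18. In replicate 2 they numbered 131 against 106 ± 17.8, a ratio of 1.24. In neither library was this the highest of the differences, which reached 31 and 145. In the left flank the same geometry had 114 pairs against 75.9 ± 12.1 in replicate 1 and 1150 against 868 ± 58.3 in replicate 2, ratios of 1.50 and 1.33, and was the highest in both. The ratio in the region depended on the members taken. It was 1.38 and 1.60 from single-place reads, and 1.64 and 1.44 from members of at least 2 reads. The left flank was not counted in these ways, so the contrast between the flanks holds for all members only.

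Beyond the dense run, the 38 kb from base 1985001 to 2023000 held 375 reads in replicate 1 and 718 in replicate 2, or 9.87 and 18.9 per kb, against 18725 and 18221 per kb in the run. Most lay on the minus strand, 94.1% (95% Clopper-Pearson interval 91.3 to 96.3) and 93.5% (91.4 to 95.2). Sequences with a single best place made up 81.1% and 66.7% of these reads, against 34.1% and 29.3% over the whole region. A few small groups led. Bases 1986001 to 1987000 held 116 minus reads in replicate 1 and 166 in replicate 2, bases 2005001 to 2006000 held 77 and 99, and bases 2021001 to 2022000 held 81 and 234. In the group at bases 2005001 to 2006000, 72.7% and 83.8% lay within 100 nt. In that at bases 2021001 to 2022000, 12.3% and 4.27% came from sequences with a single best place, against 100% in the others. The longest run of windows without a read in either library was bases 1993001 to 1995000.

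Many places of the region were listed in both libraries. Places found in both numbered 2655, or 62.8% of the members of replicate 1 and 52.6% of replicate 2, and they carried 94.8% and 96.2% of the reads. Over the whole series 103479 places were found in both, of 223429 in replicate 1 and 474395 in replicate 2. In the left flank these were 3061 of 5751 and 18895. The region was selected on its reads, so no result is read from its overlap. Places with 1 read made up 37.3% and 41.0% of the members.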

How the data were processed

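Per the labels' protocols, total RNA (40 µg) was size-selected on a gel at 10 to 40 nt, and adapters were joined only to a 5′ monophosphate and a 3′ hydroxyl. The deposited files list distinct sequences with 1 place each, a name whose whole number after the hyphen was read as the raw count of identical reads, and a mapping score deposited by the authors that runs from 0 to 37. A score of 0 was read as more than 1 equally good place. BWA was among the tools, per the submitters' processing notes. The genome build, like BWA's version and settings, was not stated in the sources used, and positions count from 1 on the deposited supercontigs.

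Reads of 21 to 28 nt were counted by their leftmost base in Python 3.11.15 with pandas 2.3.3, NumPy 2.4.6 and SciPy 1.17.1, and figures were drawn with matplotlib 3.10.9. The members, lists, windows and limits were chosen with earlier results of these data known. Named were windows with 1000 RPM or more in both libraries, the 5 leading members, the 10 leading 5′ ends by mean RPM, and the longest run of windows without reads. Alternatives changed the reads counted, the spans, the scaling, the limits and the windows, and left out each library. The counting was tested on simulated data. A count of 3 reads was taken as the limit that a count of 0 allows, or 3.37 and 1.22 RPM.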

Additional observations from a re-analysis of the deposited data

Results flagged for a closer look

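Reads shorter than the labelled sizes were present but made up a small share, 1.50% and 1.30% of the region's reads with these included. In the region 3427 reads in replicate 1 and 2892 in replicate 2 had a span under 21 nt, above the 3 reads that a count of 0 allows, and were left out of all counts above. They were 60.8% and 43.2% of all such reads of each library, while the region held 7.31% and 6.29% of the reads of 21 to 28 nt. Of the short reads in the region, 3301 and 2634 lay on the minus strand, and 3426 and 2886 were of 20 nt. The place with the most was bases 1979468 to 1979487 with 499 reads in replicate 1, and bases 1973765 to 1973784 with 1071 in replicate 2. The gap beside the region held 13 reads of 21 to 28 nt in replicate 2, of which 10 came from sequences with a single best place, and 0 in replicate 1.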

How the results depend on the processing

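The 12 dense windows were 11 to 14 under 9 alternatives. The region's mean share of 17.1% was 1.76% with each member counted once, and 8.93% to 25.3% with 1 library left out. The difference in 23-nt share, one-strand minus both-strand windows, kept its sign in the mean. Counting single-place reads alone made it 8.52 points. It was 13.0 points with windows moved by 500 bases, 2.88 with one-strand windows under 5%, 1.87 with both-strand windows of at least 20%, and 3.01 to 5.43 with 1 library left out. With each member counted once it gave no value, since a class was left empty. The ratio for 2-nt overhangs, 1.21, was 1.49 from single-place reads alone and 1.54 from members of at least 2 reads. The share of the 10 leading 5′ ends, 37.0%, was 63.1% among single-place reads, and 27.4% for the 10 leading members.

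Added after the data were seen were alternatives for strand mixing, stretches, the self-match and single windows. With 1 of the 9 one-strand and both-strand windows left out, the mean difference in 23-nt share ran from 0.648 to 7.20 points. The minor-strand share in bins of 100 nt, 0.237%, was 6.03% with each member counted once. The 40 stretches were 39 to 45 under other coverage limits and joining distances, and 18 from single-place reads alone. The self-match at 6000 nt, mean r = 0.52, was 0.57 in bins of 40 nt and 0.15 with sequences of a single best place. The cause of these shifts was not tested. No paired analysis was possible because there was 1 group.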
